A study of Mus musculus with 4 samples.

Results

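The genes described are the matrix metalloproteinases (MMP), the ADAM and ADAMTS metalloproteinases, the ADAMTS-like proteins (ADAMTSL) and the tissue inhibitors of metalloproteinases (TIMP). They were taken by gene symbol from a table of 48432 identifiers, which gave 78 genes: 23 MMP, 27 ADAM, 19 ADAMTS, 5 ADAMTSL and 4 TIMP. D2.OR is a mouse mammary line of pre-malignant hyperplastic alveolar cells, and all libraries came from organoids kept for 7 days in 3D culture with serum and Cultrex, a basement membrane extract. The cells compared were D2.OR expressing BORG, a long non-coding RNA, with 2 libraries, and parental D2.OR, with 2 libraries. The table calls the second condition Empty. The labels do not state whether those cells carried an empty vector, so carrying a vector and expressing BORG cannot be told apart. The level of BORG itself was not analysed here, so the labels were not checked against it.

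MMP, ADAM and ADAMTS proteins cut other proteins at a catalytic zinc ion, which is held by 3 histidines of a short conserved site beside the catalytic glutamate. MMPs and ADAMTS proteases cut collagens, proteoglycans and other parts of the matrix, and ADAM sheddases release growth factors and receptors from the cell surface. ADAMTSL proteins resemble the non-catalytic portion of ADAMTS proteins. TIMPs occupy the active site of many of these enzymes and block it. In the mammary gland, cleavage of the basement membrane by these enzymes is part of branching and involution.

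The zinc site separates the enzymes from the rest, so it is shown for 6 members named below. In capitals are the codons of histidine and glutamate at the head of the site and of its other histidines, 5′ to 3′ on the coding strand.
Mmp9: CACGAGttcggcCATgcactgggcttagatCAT
Mmp14: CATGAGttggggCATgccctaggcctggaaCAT
Mmp28: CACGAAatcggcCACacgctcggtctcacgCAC
Adam10: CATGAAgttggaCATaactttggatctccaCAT
Adam17: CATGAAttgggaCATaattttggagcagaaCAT
Adamts4: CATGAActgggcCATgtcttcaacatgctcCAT
These stretches lie in coding exons of GENCODE M21 on GRCm38, at chr2:164951133-164951165 (plus strand) for Mmp9, chr14:54437627-54437659 (plus) for Mmp14, chr11:83444921-83444953 (minus) for Mmp28 and chr12:21336732-21336764 (minus) for Adam17. In Adam10 (chr9:70754296-70761585, plus) and Adamts4 (chr1:171253210-171253915, plus) the site is split over 2 exons. The longest coding sequence held such a site in 22 of 23 MMP, 16 of 27 ADAM and 19 of 19 ADAMTS genes. It was found in 0 of 5 ADAMTSL and 0 of 4 TIMP genes. The MMP without a match was Mmp1a, which GENCODE M21 lists as a polymorphic pseudogene, so the missing match describes that annotated sequence only. Of the 16 ADAM genes with the site 6 reached a mean of 1 FPKM in one group, and of the 11 without it 1 did, Adam4. Adam4 overlaps Cox16 and Gm20498 on the same strand, with 0 shared exon bases. Cox16 was at 6.24 and 10.8 FPKM in BORG-expressing and 19.1 and 19.7 FPKM in parental libraries. Gm20498 was at 9.59 and 8.92 FPKM in BORG-expressing and 9.47 and 13.1 FPKM in parental libraries. Whether fragments listed for Adam4 came from these genes was not tested.

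Fragments assigned to genes came to 7900767 and 27131662 in the BORG-expressing libraries and to 24176438 and 30322679 in the parental libraries. Levels are given as CPM (the count of a gene relative to its library, scaled with TMM factors), which stand for the counts tested, or as the deposited FPKM, which is per length and allows genes to be compared. The FPKM and CPM were not in one ratio between the BORG-expressing libraries. Over the 26 members that reached 1 FPKM, the ratio of FPKM to CPM was 0.676 to 2.30 times as high in BORG-expressing replicate 1 as in replicate 2 (median 1.33), against 0.869 to 1.08 times between the parental libraries (median 0.98). Epithelial marker genes summed to 1498 and 967 FPKM in BORG-expressing and to 1150 and 1076 FPKM in parental libraries, with 7 of 10 above 1 FPKM in a library. Krt19 and Esrp1 stayed under 1 FPKM, and Krt5 was at or near 0. Cldn7 passed 1 FPKM only in BORG-expressing replicate 1, with 7 fragments, and had none in the other libraries. The epithelial markers did not share a direction. In BORG-expressing libraries Krt7, Krt8, Krt14, Krt19 and Cdh1 were higher, Krt18 and Esrp1 were lower, and Epcam did not pass. Fibroblast markers summed to 99.6 and 81.7 FPKM in BORG-expressing and 109 and 113 FPKM in parental libraries (4 of 10 above 1 FPKM, Col1a1, Pdgfra, Pdgfrb and Postn). Most of each sum was Pdgfra, with 69.4 and 58.2 FPKM in BORG-expressing and 83.0 and 94.3 FPKM in parental libraries. Among these 4 Pdgfra and Pdgfrb were lower, Postn was higher and Col1a1 did not pass in BORG-expressing libraries. Thy1 was at 0, and Col1a2, Col3a1, Dcn, Lum and Fap were near 0. Macrophage and neutrophil markers summed to 71.9 and 57.8 FPKM in BORG-expressing and 108.5 and 149.8 FPKM in parental libraries (3 of 10 above 1 FPKM, Cd14, Cd68 and S100a8). Among these 3 S100a8 was lower, Cd68 was higher and Cd14 did not pass in BORG-expressing libraries. Adgre1, Lyz2, Itgam, S100a9 and Mpo were at or near 0. Ptprc, at no more than 0.249 FPKM, was lower in BORG-expressing libraries (log2 fold change -2.74), and Csf1r, also low, did not pass. Endothelial markers summed to 0.673 and 0.611 FPKM in BORG-expressing and 1.41 and 1.62 FPKM in parental libraries. Kdr (log2 fold change -2.27) and Cdh5 (-1.24) were lower in BORG-expressing libraries, and Pecam1 (2.15) did not pass. Tek, Tie1 and Emcn had too few fragments to test. The part of these marker levels in the results below was not tested, and in such bulk RNA fewer cells of a type and less RNA per cell cannot be told apart.

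Of the 78 members 34 had enough fragments to be tested, 9 were higher and 9 lower in BORG-expressing organoids at an adjusted p under 0.05 (edgeR's quasi-likelihood test with Benjamini-Hochberg adjustment over all genes tested), and 16 did not pass. The 18 called members are to be read against 41.1% of all 15116 genes tested, of which 19.9% were higher and 21.3% lower. At 2-fold or more 5 members were higher and 3 lower, against 9.59% and 10.0% of all genes. The tested members are only those with enough fragments in one group or both, so these counts describe expressed genes and not the whole families. By family 3 of 9 tested MMP genes were higher and 1 lower, 0 of 9 ADAM genes higher and 4 lower, 3 of 10 ADAMTS genes higher and 2 lower, 1 of 3 ADAMTSL genes higher and 1 lower, and 2 of 3 TIMP genes higher and 1 lower. The median log2 fold change was 0.43 for the MMP, -0.45 for the ADAM and 0.59 for the ADAMTS genes tested. It was 0.49 for the ADAMTSL and 0.53 for the TIMP genes tested, beside 0.02 for all genes. These medians of few genes are descriptions with no test. The MMP median was the value of Mmp15 and the ADAMTSL median that of Adamtsl5, and neither gene passed. The ADAMTS median lay between the values of Adamts6 and Adamts12, which did not pass.

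**Figure D1:**
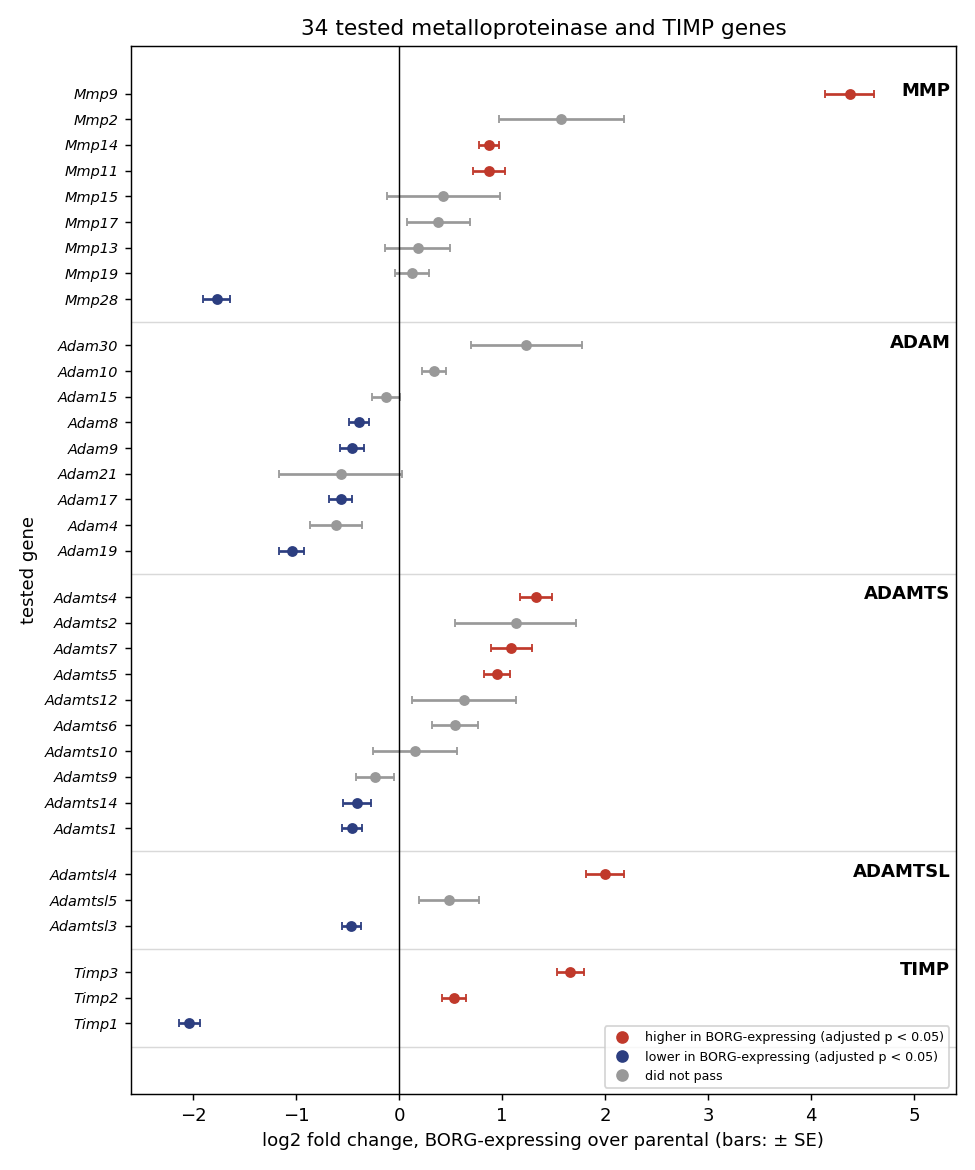
Log2 fold change (BORG-expressing over parental, horizontal axis) of the 34 tested members by family, with bars of 1 standard error and 2 libraries per group; red and blue points passed the test and grey points did not. Mmp9 lies farthest right at 4.37 and Timp1 farthest left at -2.04, and no ADAM gene is red.

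Among the inhibitors, Timp1 fell while Timp2 and Timp3 rose. Timp1 (chrX:20870166-20874735), a secreted inhibitor of most soluble MMPs, had 145 and 156 CPM in BORG-expressing and 622 and 614 CPM in parental libraries. Both BORG-expressing libraries lay far below both parental ones, with a log2 fold change of -2.04 ± 0.10 (SE) and an adjusted p of 8.7e-05 in edgeR. Timp3 (chr10:86300372-86349506), which binds to the matrix and also inhibits ADAM17 and the aggrecanases, had 171 and 147 CPM in BORG-expressing and 47.2 and 53.1 CPM in parental libraries. The groups did not overlap, and the difference was 1.66 ± 0.13 (adjusted p = 3.35e-04, edgeR). Timp3 shares 1733 exon bases with Syn3 on the opposite strand, a gene listed at no more than 0.18 FPKM in any library. Timp2 (chr11:118301069-118355740), which also links pro-MMP2 to MMP14 at the cell surface, had 541.5 and 623 CPM in BORG-expressing and 423 and 381 CPM in parental libraries. It too was higher in both BORG-expressing libraries, by 0.53 ± 0.11 (adjusted p = 0.0122, edgeR). That call was lost without parental replicate 2 (adjusted p = 0.111) and in limma fits to log2(FPKM + 1) and log2(FPKM + 0.1) (adjusted p = 0.105 and 0.102). Timp4 had 0 and 9 fragments in BORG-expressing and 1 and 4 in parental libraries, too few to test.

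**Figure D2:**
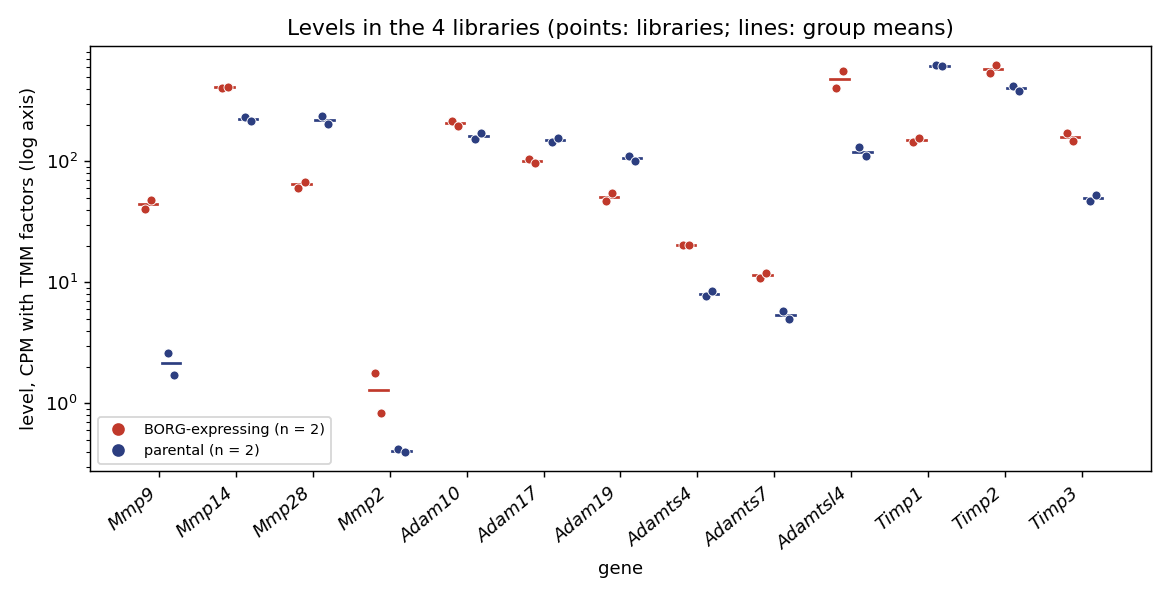
Level in CPM on a log axis of 13 members; each point is a library, each short line a group mean, with 2 BORG-expressing libraries (red) left of 2 parental ones (blue). The gap between the groups runs from wide in Mmp9 to narrow in Adam10. Most genes drawn were picked because they passed the test, so a gap is no further result. How many of all genes tested have groups that do not overlap was not counted.

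Per length, the makeup of the inhibitor pool shifted. Timp1 made up 51.3 and 48.8% of the summed TIMP FPKM in BORG-expressing and 85.4 and 87.0% in parental libraries. Timp2 made up 41.8 and 42.9% in BORG-expressing and 13.6 and 11.8% in parental libraries, so that Timp1 and Timp2 stood close to each other in BORG-expressing organoids and far apart in parental ones. Timp3 contributed 6.89 and 8.23% in BORG-expressing and 1.05 and 1.23% in parental libraries. The sum over the family was 406 and 344 FPKM in BORG-expressing and 822 and 867 FPKM in parental libraries. These shares and sums are descriptions with no test. Of the 3 expressed genes only Timp1 was lower in the BORG-expressing libraries.

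**Figure D3:**
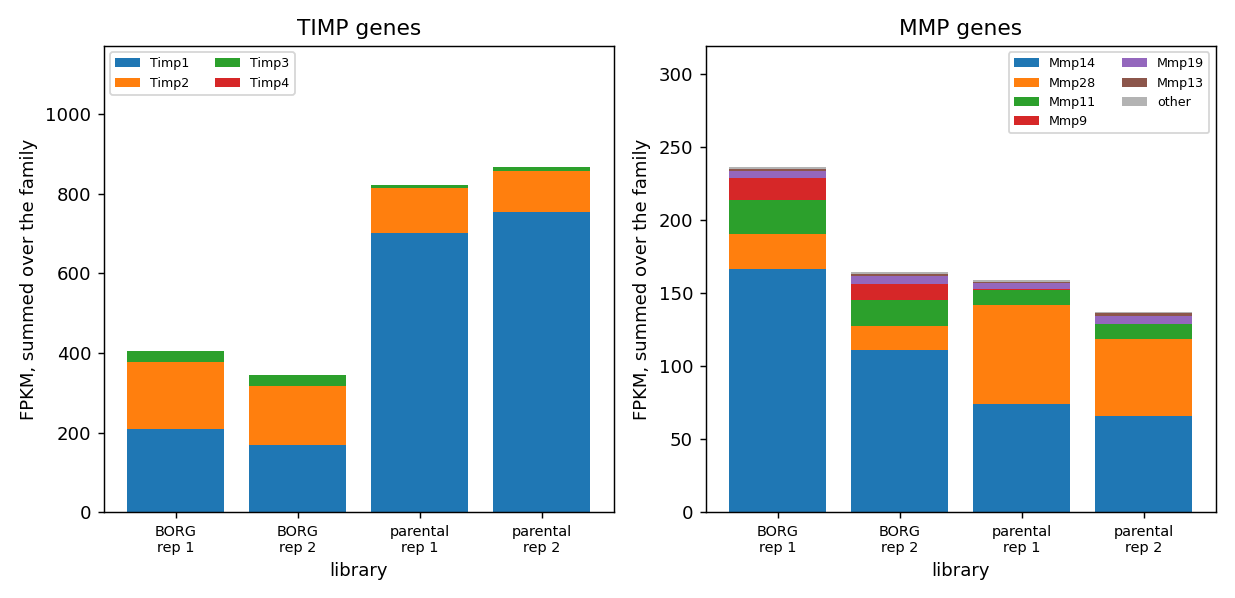
Stacked FPKM of the TIMP genes (left panel) and MMP genes (right panel) in each of the 4 libraries, BORG-expressing on the left of each panel. The TIMP columns are 406 and 344 FPKM high in BORG-expressing and 822 and 867 in parental libraries, and in the MMP panel the Mmp28 segment is small in BORG-expressing libraries and nearly as tall as Mmp14 in parental ones.

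The gelatinase Mmp9, a secreted protease of denatured collagen and basement membrane collagen IV, was the member with the widest difference among those tested. It had 40.5 and 48.0 CPM in BORG-expressing and 2.61 and 1.72 CPM in parental libraries. Both BORG-expressing libraries were far above both parental ones, with a log2 fold change of 4.37 ± 0.24 (adjusted p = 1.11e-04, edgeR; chr2:164940780-164955850). In FPKM, Mmp9 stood at 14.7 and 11.3 in BORG-expressing and 0.703 and 0.454 in parental libraries. The other gelatinase, Mmp2, had 14 and 23 fragments in BORG-expressing and 10 and 12 in parental libraries, which is 1.77 and 0.838 CPM in BORG-expressing and 0.420 and 0.396 CPM in parental libraries. Its libraries did not overlap, but the BORG-expressing ones differed from each other by more than the gap between the groups, and the difference of 1.58 ± 0.61 did not pass (adjusted p = 0.0821, edgeR).

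Mmp14, a membrane-anchored collagenase that activates pro-MMP2, was the most abundant MMP per length in all 4 libraries. It had 407 and 413 CPM in BORG-expressing and 231 and 217 CPM in parental libraries. The replicates lay close together and the groups apart, by 0.87 ± 0.10 (adjusted p = 0.00106, edgeR; chr14:54431612-54445364). Mmp11, a stromelysin that is activated inside the cell by furin, had 42.3 and 54.9 CPM in BORG-expressing and 27.4 and 26.1 CPM in parental libraries and was higher by 0.87 ± 0.15 (adjusted p = 0.00598, edgeR). Mmp11 shares 155 exon bases with Chchd10 on the opposite strand, which ran the other way, at 15.8 and 9.01 FPKM in BORG-expressing and 38.0 and 22.4 FPKM in parental libraries. Mmp28, the secreted enzyme epilysin of epithelia, was the only tested MMP that fell. It had 60.9 and 68.2 CPM in BORG-expressing and 238 and 203 CPM in parental libraries, with no overlap and a log2 fold change of -1.77 ± 0.13 (adjusted p = 2.66e-04, edgeR; chr11:83440768-83463071).

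As a share of the summed MMP FPKM, Mmp14 made up 70.4 and 67.5% in BORG-expressing and 46.5 and 47.8% in parental libraries. Mmp28 made up 10.2 and 9.84% in BORG-expressing and 42.6 and 38.7% in parental libraries, where it stood next to Mmp14. Mmp9 reached 6.23 and 6.84% in BORG-expressing libraries and under 1% in parental ones. The family sums were 236.5 and 164.6 FPKM in BORG-expressing and 159 and 137.4 FPKM in parental libraries. In FPKM, then, the sum of BORG-expressing replicate 2 was close to that of parental replicate 1. This closeness holds for FPKM only and need not hold for counts. The ratio of FPKM to CPM of Mmp14 was 0.409 and 0.269 in BORG-expressing and 0.320 and 0.303 in parental libraries. Mmp13, a collagenase, Mmp19, and the membrane-bound Mmp15 and Mmp17 did not pass, with log2 fold changes between 0.13 and 0.43, and for Mmp13 and Mmp19 the libraries of the groups overlapped in CPM. Mmp19 shares 789 exon bases with Tmem198b on the opposite strand.

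The collagenases, stromelysins and matrilysin of chromosome 9 were nearly silent. The 10 MMP genes between chr9:7272514-7699585 span 427 kb, 4 of them were listed with no fragment in any library, and only Mmp13 reached 1 FPKM in a group or entered the test. Mmp3, a stromelysin, had 6 fragments in BORG-expressing and 16 in parental libraries, and its relative Mmp10 had 9 in BORG-expressing and 7 in parental libraries. Of the paired interstitial collagenase genes, Mmp1a had 0 fragments and Mmp1b 3 over all libraries. Of the 13 MMP genes elsewhere 5 reached 1 FPKM, and 8 were tested, of which 3 were higher and 1 lower.

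The promoters of the chromosome 9 genes and of the 8 other MMPs with a RefSeq window differed in letters. The remaining MMPs, Mmp9 among them, have no window and are not described by this. So 6 windows of 120 bases before the RefSeq start are shown. They are for a chromosome 9 stromelysin and collagenase and for the expressed Mmp14, Mmp28, Timp1 and Adamtsl4. Capitals mark TGANTCA (the AP-1 motif), TATAAA (the TATA box) and GGGCGG (the GC box), searched on both strands, with GC boxes that run into each other capitalised together.
Mmp3: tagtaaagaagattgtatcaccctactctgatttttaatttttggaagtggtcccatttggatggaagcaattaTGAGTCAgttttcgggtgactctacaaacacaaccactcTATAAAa
Mmp13: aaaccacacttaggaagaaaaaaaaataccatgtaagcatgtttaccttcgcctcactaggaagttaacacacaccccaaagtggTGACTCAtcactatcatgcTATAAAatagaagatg
Mmp14: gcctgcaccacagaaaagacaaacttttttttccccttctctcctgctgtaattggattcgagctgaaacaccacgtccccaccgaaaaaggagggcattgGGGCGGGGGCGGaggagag
Mmp28: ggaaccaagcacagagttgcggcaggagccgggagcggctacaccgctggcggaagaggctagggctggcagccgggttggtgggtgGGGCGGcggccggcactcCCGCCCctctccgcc
Timp1: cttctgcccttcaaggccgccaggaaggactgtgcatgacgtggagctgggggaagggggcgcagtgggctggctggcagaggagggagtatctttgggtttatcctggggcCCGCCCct
Adamtsl4: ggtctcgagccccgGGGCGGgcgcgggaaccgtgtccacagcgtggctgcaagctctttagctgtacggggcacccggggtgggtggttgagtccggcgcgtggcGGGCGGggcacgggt
On GRCm38.p6 these are chr9:7445702-7445821 (plus strand) for Mmp3, chr9:7272394-7272513 (plus) for Mmp13, chr14:54431478-54431597 (plus) for Mmp14, chr11:83463041-83463160 (minus) for Mmp28, chrX:20870046-20870165 (plus) for Timp1 and chr3:95687918-95688037 (minus) for Adamtsl4. A RefSeq window of 300 bases (250 before and 50 after the start) was found for 48 of the 78 members; Mmp9, Mmp2, Adamts4, Adamts5, Adamts7 and Adam9 are among those with none. Mmp7, Mmp12, Mmp23 and Adam19 have several windows, and a gene was counted if any of its windows matched. The shares of all windows given beside these counts are per window, not per gene. TGANTCA stood in a window of 8 of 10 chromosome 9 MMP genes and of 0 of 8 other MMP genes, against 7.81% of all 32851 windows. TATAAA stood in a window of 9 of 10 and of 1 of 8 genes, against 13.6% of all windows. GGGCGG stood in a window of 0 of 10 and of 7 of 8 genes, against 35.7% of all windows. Over all families GGGCGG was in a window of 17 of the 18 members that reached 1 FPKM and of 10 of the 30 that did not. Its share among all genes that reached 1 FPKM was not counted. These motifs were kept after 8 had been searched and their matches seen, so the counts are descriptions, a match is no proof of a bound site, and binding was not measured.

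**Figure D4:**
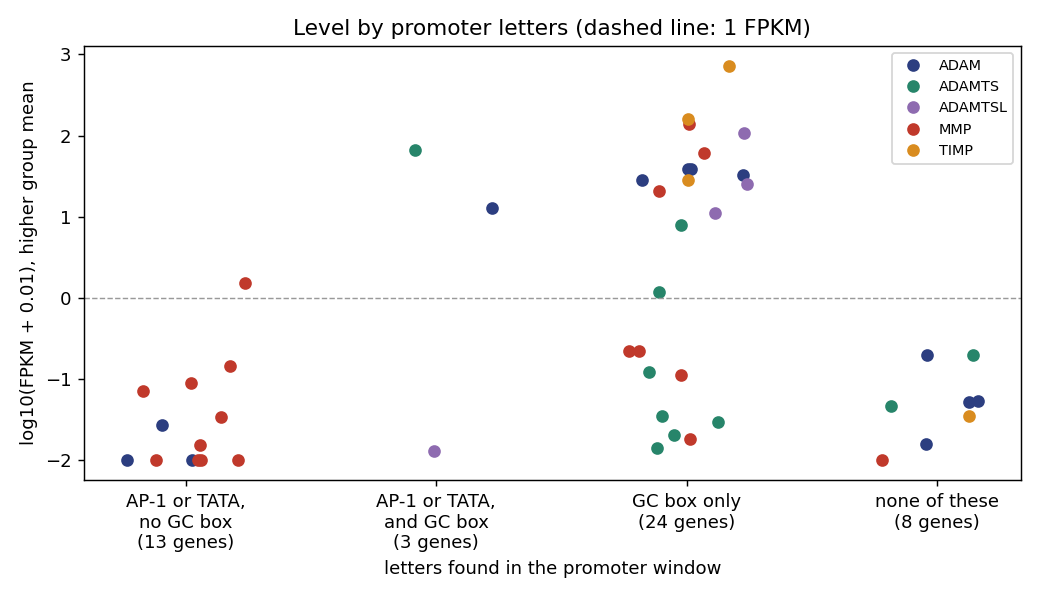
Level of the 48 members with a RefSeq promoter, as log10(FPKM + 0.01) of the higher group mean (vertical axis). Genes are sorted by the letters found in any of their windows (horizontal axis). Points are genes coloured by family, spread sideways for legibility, and the dashed line is 1 FPKM. Above that line are 1 of 13 genes with AP-1 or TATA letters and no GC box, 2 of 3 with both, 15 of 24 with a GC box only and 0 of 8 with none.

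Of the 9 ADAM genes tested 4 fell and 0 passed as higher, against 21.3% lower and 19.9% higher among all genes tested. The count of higher ones depends on the setting, since Adam10 passed as higher among genes with a mean of at least 1 FPKM (adjusted p = 0.0497) and without BORG-expressing replicate 2 (adjusted p = 0.0439). Adam19, a sheddase of neuregulin, had 47.35 and 55.1 CPM in BORG-expressing and 111 and 101 CPM in parental libraries. The groups did not overlap, and the difference was -1.04 ± 0.12 (adjusted p = 0.00140, edgeR; chr11:46055992-46147343). Adam17 (chr12:21323509-21373632), the sheddase of TNF and of several EGF receptor ligands, had 105 and 97.4 CPM in BORG-expressing and 145 and 155 CPM in parental libraries. It was lower in both BORG-expressing libraries, by -0.57 ± 0.11 on the log2 scale (adjusted p = 0.00810, edgeR). Adam17 lost this call with the replicate number as a block (adjusted p = 0.0577, edgeR), though those numbers were not shown to pair the libraries. Its opposite-strand neighbour Iah1, with which it shares 311 exon bases, was at 9.61 and 7.93 FPKM in BORG-expressing and 12.5 and 10.2 FPKM in parental libraries. Adam10 (chr9:70678997-70780229), the sheddase of Notch and of cadherins, had 216 and 196 CPM in BORG-expressing and 153 and 173 CPM in parental libraries. Its libraries did not overlap, yet the difference of 0.34 ± 0.11 did not pass (adjusted p = 0.0551, edgeR). The log2 fold changes of Adam10 and Adam17 differ in sign, and the difference between them was not tested.

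The remaining calls in the family were small. Adam9, a sheddase with a wide range of substrates, had 162.5 and 146 CPM in BORG-expressing and 198 and 225 CPM in parental libraries, a difference of -0.45 ± 0.12 (adjusted p = 0.0230, edgeR). Adam8, known from leukocytes and tumour cells, had 127 and 128 CPM in BORG-expressing and 166 and 169 CPM in parental libraries, a difference of -0.39 ± 0.10 (adjusted p = 0.0208, edgeR). For both the libraries did not overlap, but neither call held in the limma fits to FPKM, with adjusted p from 0.101 to 0.507. Without parental replicate 2 the adjusted p was 0.177 for Adam9 and 0.148 for Adam8. Adam9 also lost its call without BORG-expressing replicate 2 (adjusted p = 0.0671), and Adam8 without BORG-expressing replicate 1 (0.0547) or parental replicate 1 (0.0766). Adam15, at 25.7 to 40.1 FPKM over the libraries, overlapped between the groups and did not pass (-0.13 ± 0.14, adjusted p = 0.483, edgeR). Adam4, Adam21 and Adam30, known mainly from the testis, were at no more than 2.03 FPKM and did not pass. Per length, Adam8, Adam9, Adam10 and Adam15 each held between 14.0 and 28.2% of the family's FPKM in every library. Adam17 held 9.91 to 15.3% and Adam19 3.85 to 7.26%. The family sums were 172 and 157 FPKM in BORG-expressing and 186 and 201 FPKM in parental libraries.

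Among the 10 ADAMTS proteases tested Adamts4, Adamts5 and Adamts7 rose, and Adamts1 and Adamts14 fell. Adamts4 (chr1:171250421-171260637), an aggrecanase, had 20.45 and 20.2 CPM in BORG-expressing and 7.73 and 8.42 CPM in parental libraries. The replicates agreed closely and the groups were apart by 1.33 ± 0.15 (adjusted p = 0.00124, edgeR). Adamts5, also an aggrecanase, had 49.75 and 52.9 CPM in BORG-expressing and 24.9 and 28.3 CPM in parental libraries, higher by 0.95 ± 0.12 (adjusted p = 0.00189, edgeR). In FPKM its libraries were nearer, 4.78 and 6.67 in BORG-expressing and 2.87 and 3.62 in parental libraries, and the call was lost in the limma fits (adjusted p = 0.0640 and 0.0609). Adamts7 (chr9:90163069-90208071), which cuts cartilage oligomeric matrix protein, had 10.9 and 12.1 CPM in BORG-expressing and 5.84 and 4.985 CPM in parental libraries. It was higher in both BORG-expressing libraries, by 1.09 ± 0.20 (adjusted p = 0.00650, edgeR), and shares 122 exon bases with Tbc1d2b on the opposite strand, itself at 4.08 and 3.14 FPKM in BORG-expressing and 2.61 and 2.03 FPKM in parental libraries.

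Adamts1, a protease of versican and aggrecan and the most abundant ADAMTS gene per length in every library, had 289 and 279.5 CPM in BORG-expressing and 378 and 400.4 CPM in parental libraries. It was lower in both BORG-expressing libraries, by -0.45 ± 0.10 on the log2 scale (adjusted p = 0.0117, edgeR). It made up 66.1 and 68.8% of the family's FPKM in BORG-expressing and 78.7 and 80.9% in parental libraries. Adamts14, a procollagen N-propeptidase, was at 39.0 and 45.0 CPM in BORG-expressing and 60.2 and 51.9 CPM in parental libraries, a difference of -0.41 ± 0.13 (adjusted p = 0.0499, edgeR). Neither call was firm: Adamts1 had an adjusted p of 0.109 and 0.107 in the limma fits and of 0.115 without parental replicate 2. For Adamts14 they were 0.661 and 0.651 in the limma fits, 0.0502 among genes of at least 1 FPKM, 0.131 without BORG-expressing replicate 1, 0.226 without parental replicate 1 and 0.0595 without parental replicate 2. Adamts2, Adamts6, Adamts9, Adamts10 and Adamts12 did not pass, with log2 fold changes from -0.23 to 1.13.

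Adamtsl4, which binds fibrillin-1 and is needed for the fibres that hold the lens, had the widest difference among the ADAMTS and ADAMTSL genes tested. It had 402 and 559.6 CPM in BORG-expressing and 131 and 110.0 CPM in parental libraries. The lower BORG-expressing library was still well above both parental ones, and the log2 fold change was 2.00 ± 0.18 (adjusted p = 5.31e-04, edgeR; chr3:95676201-95687917). In FPKM the BORG-expressing libraries changed places, with 127 in replicate 1 and 88.6 in replicate 2, against 26.2 and 20.6 in parental libraries. Adamtsl3 had 169 and 164 CPM in BORG-expressing and 230.4 and 228 CPM in parental libraries, a difference of -0.46 ± 0.09 (adjusted p = 0.0103, edgeR). That call was lost in the limma fits (adjusted p = 0.109 and 0.108), without parental replicate 1 (0.0512) and without parental replicate 2 (0.0690). Adamtsl4 made up 80.3 and 76.6% of the ADAMTSL FPKM in BORG-expressing and 43.9 and 39.7% in parental libraries, where Adamtsl3 was at a like share of 42.8 and 48.4%. Adamtsl5 overlapped between the groups and did not pass (0.49 ± 0.29, adjusted p = 0.230, edgeR).

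The other 44 members were not tested, and 13 of them were listed with no fragment in any library. They include 14 MMP, 18 ADAM, 9 ADAMTS and 2 ADAMTSL genes and Timp4. Adamtsl1 had 0 and 1 fragments in BORG-expressing and 13 and 8 in parental libraries. At equal depth the parental count was 13.5 times the BORG-expressing one, with an exact interval at 95% from 2.17 to 558 that covers counting error only. Adam33 had 2 and 5 fragments in BORG-expressing and 1 and 0 in parental libraries, a parental count 0.0918 times the BORG-expressing one at equal depth (0.00204 to 0.715). Both members were picked out after the counts of all 44 had been seen. Adamts13, the protease of von Willebrand factor, had 0 and 10 fragments in BORG-expressing and 0 and 0 in parental libraries, so that all of them came from 1 library. Mmp25, a membrane-bound MMP of leukocytes, had 9 fragments in BORG-expressing and 23 in parental libraries, which at equal depth is a parental count 1.64 times as high (0.732 to 4.03).

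Genes that act with these enzymes were taken as 4 lists, each to be read against 19.9% higher and 21.3% lower among all genes tested, and the counts of called genes in them are given as descriptions. Of 28 activators, inhibitors and partners 18 were tested, 5 were higher and 5 lower. Plaur, the receptor of urokinase, was at 156 and 108 FPKM in BORG-expressing and 430.1 and 348 FPKM in parental libraries, and fell by 1.68 ± 0.12 on the log2 scale (adjusted p = 2.68e-04, edgeR). Plat, tissue plasminogen activator, fell by 1.22 ± 0.11 (adjusted p = 4.39e-04, edgeR), while Plau, urokinase, named after its values were seen, rose by 0.84 ± 0.09 (adjusted p = 0.00114, edgeR). Lcn2, a lipocalin that binds MMP9 and slows its breakdown, was at 2.88 and 2.38 FPKM in BORG-expressing and 11.8 and 9.56 FPKM in parental libraries. It fell by 2.13 ± 0.24 (adjusted p = 0.00114, edgeR), opposite in sign to Mmp9. Thbs1, a thrombospondin that binds pro-MMP2 and pro-MMP9, was at 63.5 and 57.5 FPKM in BORG-expressing and 17.4 and 17.4 FPKM in parental libraries. It rose by 1.75 ± 0.10 (adjusted p = 1.13e-04, edgeR). The remaining called genes were named after their values were seen. Thbs2 (-4.29 ± 0.62, adjusted p = 0.00276, edgeR) was lower and Spock2 (3.21 ± 0.88, adjusted p = 0.0281, edgeR) higher, both under 1 FPKM. Under 2-fold, Pcsk7 (-0.61) was lower and Bsg (0.52) and Cd44 (0.34) were higher.

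Of 14 genes listed as partners of ADAM10 or ADAM17, not all of them tied to transport to the cell surface, 13 were tested, 4 were higher and 4 lower. Frmd8, which stabilises iRhom and ADAM17 at the surface, was at 14.7 and 10.5 FPKM in BORG-expressing and 5.46 and 4.57 FPKM in parental libraries, and rose by 1.19 ± 0.14 (adjusted p = 0.00148, edgeR). Among the tetraspanins that bind ADAM10, Tspan17 rose by 1.46 ± 0.20 (adjusted p = 0.00217, edgeR), with 16.7 and 12.5 FPKM in BORG-expressing and 5.11 and 4.70 FPKM in parental libraries. Tspan15 fell by 1.74 ± 0.18 (adjusted p = 7.44e-04, edgeR), with 2.53 and 1.71 FPKM in BORG-expressing and 7.03 and 6.78 FPKM in parental libraries. Tspan33, which stayed under a mean of 1 FPKM and was named after its values were seen, was lower by a log2 fold change of -3.64 ± 0.72 (adjusted p = 0.00890, edgeR). Tspan5 (0.05) and Tspan14 (0.14) did not pass, so the tetraspanins did not share a direction. Sh3d19, an adaptor that binds ADAM tails, rose by 1.31 ± 0.11 (adjusted p = 3.55e-04, edgeR). The other called genes of the list, all under 2-fold, were named after their values were seen. Mad2l1 (-0.59 ± 0.17, adjusted p = 0.0342, edgeR) and Pdia6 (-0.30 ± 0.10, adjusted p = 0.0455, edgeR) were lower. Dlg1 (0.70 ± 0.10, adjusted p = 0.00297, edgeR) was higher.

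Of 20 substrates of ADAMTS proteases 9 were tested, 2 were higher and 3 lower. The higher ones, named after their values were seen because they lay outside the limits on level or fold, were Fbn1, fibrillin-1, at under 1 FPKM (2.25 ± 0.27, adjusted p = 0.00136, edgeR) and the syndecan gene Sdc4 (0.59 ± 0.10, adjusted p = 0.00483, edgeR). Fn1, fibronectin, fell by 1.17 ± 0.11 (adjusted p = 6.26e-04, edgeR), with 41.0 and 33.2 FPKM in BORG-expressing and 70.1 and 68.4 FPKM in parental libraries. Ltbp1, which stores latent TGF-beta in the matrix, fell by 1.57 ± 0.12 (adjusted p = 3.33e-04, edgeR). Vwf, von Willebrand factor, stayed under 1 FPKM and was named after its values were seen. Its log2 fold change was -2.30 ± 0.46 (adjusted p = 0.00982, edgeR). Of 24 membrane proteins shed by ADAM proteases 22 were tested, 6 were higher and 3 lower, and 13 did not pass. Of the EGF receptor ligands in the list Areg and Hbegf fell, while Tgfa (-0.70), Btc (-0.06), Epgn (0.07) and Ereg (1.01) did not pass. Areg was at 41.8 and 37.6 FPKM in BORG-expressing and 309.5 and 321 FPKM in parental libraries, and fell by 2.86 ± 0.16 (adjusted p = 1.17e-04, edgeR), and Hbegf fell by 1.36 ± 0.11 (adjusted p = 3.07e-04, edgeR). Some of the listed proteins are known as ADAM10 substrates, and those given next are not all of them. The chemokine gene Cx3cl1 rose by 1.87 ± 0.15 (adjusted p = 3.14e-04, edgeR) and Notch1 by 1.13 ± 0.16 (adjusted p = 0.00238, edgeR). App, the amyloid precursor gene and also an ADAM10 substrate, named after its values were seen, fell by 0.99 ± 0.09 (adjusted p = 6.17e-04, edgeR). L1cam (-0.28) and Efna5 (-0.49) did not pass. Cd44, also in this list, was higher by 0.34 ± 0.10 (adjusted p = 0.0339, edgeR), while Cxcl16 (0.55) and Notch2 (0.19) did not pass. Sdc1, a syndecan, was at 574 and 370 FPKM in BORG-expressing and 192 and 194 FPKM in parental libraries and rose by 1.18 ± 0.09 (adjusted p = 3.33e-04, edgeR). Cdh1, E-cadherin, was at 2.58 and 1.55 FPKM in BORG-expressing and 1.01 and 0.827 FPKM in parental libraries, higher by 1.12 ± 0.23 (adjusted p = 0.0101, edgeR), a call lost in the limma fits (adjusted p = 0.0547 and 0.0565). RNA was measured here and shedding was not.

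Of the 18 called members 10 kept direction and call in all 11 other settings tried: Mmp9, Mmp11, Mmp14, Mmp28, Timp1, Timp3, Adam19, Adamts4, Adamts7 and Adamtsl4. The other 8 lost the call in at least 1 and kept their direction in each. The 5 called genes that fell by less than 0.5 on the log2 scale all lost it in the limma fits.

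**Figure D5:**
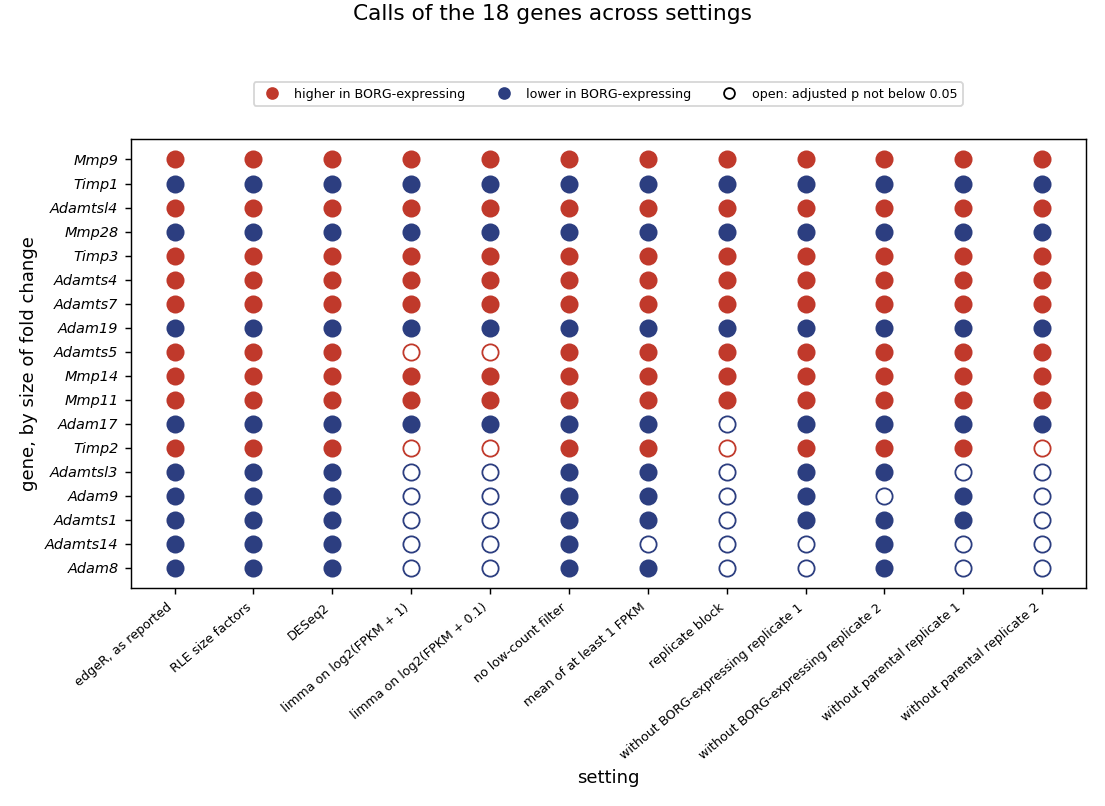
Calls of the 18 members (rows, widest fold change at the top) in the edgeR fit as reported and in 11 other settings (columns); red is higher and blue lower in BORG-expressing organoids, and open circles had an adjusted p not below 0.05. The 10 rows with no open circle are those listed as kept, the open circles gather in the lower rows, and no row changes colour.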

How the data were processed

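The deposited table gives per gene and library an estimated count of fragments and FPKM, per the file headers; its 2 columns of scaled fragments were not used. Reads were handled with Trim Galore, FastQC, TopHat and Cufflinks on builds named as GRCm38, mm10 and mm8, per the submitters' processing notes. For versions, strand setting and annotation release the sources used here give nothing, so overlapping genes on opposite strands may share fragments although the kit is stranded. Not every overlapping gene is reported here. Of the estimated counts 97.2% were whole; all were rounded. The table's conditions BORG and Empty, with replicates counted from 0, were read as BORG-expressing and parental, replicates 1 and 2. The design text calls the libraries biological duplicates; separate cultures or days are not stated, so the p-values rest on a spread that may be technical.

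Symbols and coordinates came from GENCODE M21 on GRCm38 (48051 of 48432 identifiers matched, 381 did not) and promoters from RefSeq on GRCm38.p6. Differences were tested with edgeR 4.0.16 (quasi-likelihood F test, TMM factors, filterByExpr, Benjamini-Hochberg over 15116 genes) in R 4.3.3, after a test on simulated data. The SE is the log2 fold change over the square root of F. Alternatives were RLE factors, DESeq2 1.42.0, limma 3.58.1 on log2(FPKM + 1) and log2(FPKM + 0.1), no filter on low counts, a mean of at least 1 FPKM, the replicate number as a block and each library left out. FPKM values are those deposited by the authors.

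Members and lists were chosen with earlier results of these data known. Library values are given for members past an adjusted p of 0.05 with a change of at least 2-fold and a mean of at least 1 FPKM, for the TIMPs, Mmp2, Mmp9, Mmp14, Adam10 and Adam17, and besides for other called members; list genes past the same limits are named. The sequences shown, the motifs, the zinc site split and the grouping of chromosome 9 genes were chosen after values were seen. Zinc sites were found by translating the longest GENCODE coding sequence with Biopython 1.88.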

Additional observations from a re-analysis of the deposited data

How the results depend on the processing

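None of the 18 calls among the members changed direction in the 11 other settings. The limma fits to log2(FPKM + 1) and log2(FPKM + 0.1) called 1881 and 1941 of all genes higher against 3001 as reported. Each of these fits called 4 members lower against 9, with 2 ADAM genes lower against 4, 0 ADAMTS and ADAMTSL genes lower against 3 and 1 TIMP higher against 2. Among genes with a mean of at least 1 FPKM, 1 ADAM gene, Adam10, was higher (adjusted p = 0.0497) against 0. With a library left out, the lone library is assumed to vary like the other group; members lower then numbered 4 to 8, ADAM genes higher 0 to 1 (Adam10 without BORG-expressing replicate 2, adjusted p = 0.0439), ADAM genes lower 2 to 3, ADAMTS and ADAMTSL genes lower 0 to 3 and TIMP genes higher 1 to 2. The lowest of these counts, except for ADAM genes higher, came without parental replicate 2. Some genes that had not passed changed sign. The log2 fold change of Adam15 was 0.0947 and 0.0966 in the limma fits. With a library left out it ran from -0.29 (without BORG-expressing replicate 2; -0.10 without parental replicate 2) to 0.41 for Adamts10, from -0.0023 (without BORG-expressing replicate 2) to 0.79 for Adamtsl5, from -0.19 (without parental replicate 1) to 0.59 for Mmp13 and from -0.056 (without parental replicate 1) to 0.26 for Mmp19. The cause was not tested.

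The replicate numbers were not shown to pair the libraries: deviations of same-numbered libraries correlated at -0.44. With the replicate block 1986 genes were higher, 3 members lower, 1 ADAM gene lower, 0 ADAMTS and ADAMTSL genes lower and 1 TIMP higher, and Adam17, called in the other settings, had an adjusted p of 0.0577. A block with crossed numbers, added after seeing the data, called 4619 genes higher and 1 ADAM gene higher. With 2 libraries per group, and a depth that differed 3.84-fold between the deepest and the shallowest, most members with few fragments had counting intervals that allow either direction or were too sparse for one.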
